A study of Mus musculus with 38 samples.

Results

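60577 omental tumors that had received carboplatin and paclitaxel were followed from 1 day after the last dose (TP1, n = 3) to 21 days after it (TP3, n = 4), the path from the acute response to the late residual tissue. The tumors were chosen by their labels alone and make up 7 of the 38 RNA-sequencing libraries of the series. 60577 is 1 mouse cell line of high-grade serous ovarian cancer (HGSOC), injected into the peritoneal cavity of female FVB mice aged 8 to 9 weeks. The mice were given 3 weekly doses of carboplatin at 20 mg/kg with paclitaxel at 10 mg/kg, and the TP1, TP2 and TP3 tumors were taken on days 36, 42 and 56 after injection. Treated tumors of TP2, 7 days after the last dose (n = 4), stand between them in time, and vehicle-treated control tumors of TP1 (n = 3) and TP2 (n = 3) give the level without the drugs. No control tumors of TP3 were analyzed here, so at the end of the path treatment cannot be told apart from time since injection or from the age of the mouse. Each library is the bulk RNA of a frozen piece of 1 mouse's omental tumor, which holds tumor cells, stroma, immune cells and whatever fat the piece includes. In such RNA, fewer cells of a type and less RNA per cell cannot be told apart. The p-values set differences between groups against the spread between tumors within groups, pooled over the groups fitted.

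The omentum is a fatty fold of the peritoneum and the usual first site of spread of HGSOC. Its fat is dotted with milky spots, clusters of B cells, T cells and macrophages around blood vessels and mesothelium, on which tumor cells settle. A growing tumor replaces the fat with tumor cells and with matrix laid down by fibroblasts. Carboplatin forms DNA adducts and paclitaxel holds cells in mitosis, and dying cells commonly draw neutrophils and monocytes.

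The expected counts on genes summed to between 26209833 and 31411938 in TP1 treated tumors, 19456375 and 26668717 in TP2 treated tumors and 24196228 and 29011193 in TP3 treated tumors. The share of counts taken by 7SL RNA, the small abundant RNA of the signal recognition particle, was 7.87%, 7.99% and 15.4% at TP1, between 9.38% and 26.5% at TP2 and between 1.93% and 5.89% at TP3, with no overlap of TP3 with either. On the first principal component of log2 CPM (CPM, the counts of a gene scaled to a common library size), which held 54.7% of the variance among the 17 tumors, the treated tumors lay at -13.1, 22.9 and -14.5 at TP1, at 58.0, 23.6, 34.8 and 45.5 at TP2 and at 82.3, 78.4, 75.3 and 75.8 at TP3. The control tumors lay between -113.55 and -50.0, so the TP3 tumors were the farthest from the controls. On the second component (15.6% of variance) the TP1 treated tumors lay between -42.9 and -0.38 and the TP3 tumors between 31.05 and 38.7. TP2 treated replicates 3 and 4, at -77.5 and -66.4, lay on the far side of TP1 from TP3. The mean distance between tumors, 1 minus Pearson's correlation of log2 CPM, was 0.0159 within TP3, 0.0293 within TP1 and 0.0388 within TP2, and 0.0768 between TP1 and TP3. TP1 treated replicate 2 stood apart from its group, toward the later tumors, with more adipocyte and immunoglobulin RNA and less neutrophil RNA. Where leaving out 1 tumor moved a fold change named here by over 1.5 times, the value without it is given.

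**Figure D1:**
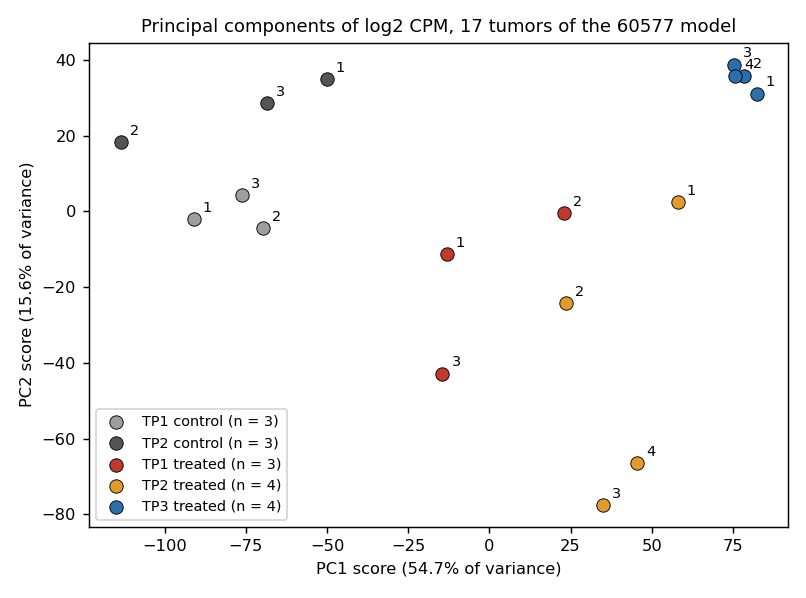
The first and second principal components of log2 CPM over the genes tested in the 17 60577 tumors, with the share of variance on each axis, colors for the 5 groups and numbers for replicates. The TP3 treated tumors form a tight cluster at the far right between 75.3 and 82.3 on the first component, the controls lie at the left below -50.0, and TP1 treated replicate 2 lies at 22.9, to the right of the other TP1 treated tumors.

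Between TP1 and TP3, 1791 of 16241 genes (11.0%) changed, 954 higher (5.87%) and 837 lower (5.15%) at TP3. A gene was called changed at an absolute log2 fold change above 1 and a Benjamini-Hochberg adjusted p-value below 0.05 in edgeR's quasi-likelihood test, fitted over the 17 tumors, and "rose" and "fell" are used of such genes only. Leaving out TP1 treated replicate 1 or 3 lowered the count to 1187 and 1111 and the share of higher genes from 53.3% to 42.9% and 43.2%. In 23.8% of all genes the TP3 tumors lay wholly above the TP1 tumors, and in 22.3% wholly below. From TP1 to TP2, 977 genes changed (6.02%, with 3.58% higher and 2.44% lower), and from TP2 to TP3, 1278 (7.87%, with 3.47% higher and 4.4% lower). These legs share the TP2 tumors, and when the 7SL share was a covariate the counts were 398 and 7, so that the change of the second leg cannot be told apart from that share, while the count from TP1 to TP3 was 1571. The first leg was unsteady as well, with 254 and 416 genes called without TP1 treated replicate 1 or 3. Between TP2 and TP1 controls 0 genes passed in edgeR, against 1501 (9.24%) at an unadjusted p below 0.05, 70 by DESeq2's Wald test and 0 by limma-voom. The genes were read in 39 lists of markers and pathways, beside a median log2 fold change over all genes of 0.005. Counts of list members from TP1 to TP3 stand beside 11.0% of all genes called, 5.87% higher and 5.15% lower. Those from TP1 to TP2 stand beside 3.58% higher and 2.44% lower, and those from TP2 to TP3 beside 3.47% higher and 4.4% lower. List counts of the single legs were not refitted under the alternatives.

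**Figure D2:**
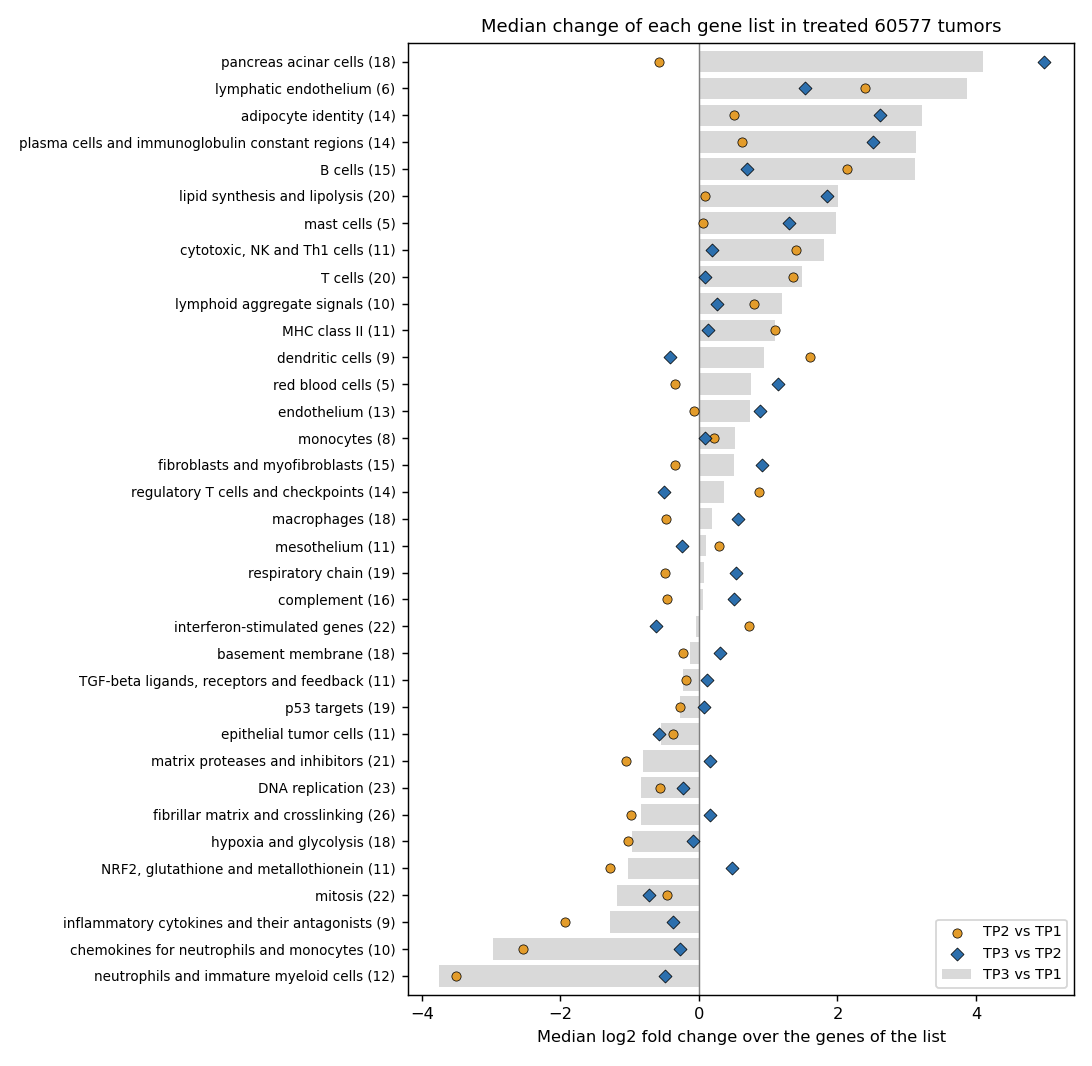
Median log2 fold change of each gene list with at least 5 genes tested, as bars for TP3 against TP1 treated tumors, circles for TP2 against TP1 and diamonds for TP3 against TP2. Neutrophil, chemokine and matrix lists have their circle near the end of the bar, while the lipid, plasma cell and adipocyte lists have their diamond there.

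Neutrophil and immature myeloid genes and the attracting chemokines were the acute program that was lost. Of 19 genes on the neutrophil list 12 passed the filter on low counts, and 11 of the 12 fell from TP1 to TP3 with none higher, with a median log2 fold change of -3.76 (all genes lower: 5.15%). The summed level of the list was 1180, 397 and 1242 CPM at TP1, between 73.9 and 114 CPM at TP2 and between 124 and 146 CPM at TP3. Arg1, whose values follow below, made up a large part of the sums at TP1. The lowest TP1 tumor, replicate 2, thus stood above every later treated tumor. In the first leg, TP1 to TP2, 11 of the 12 fell with a median of -3.50, and from TP2 to TP3 1 fell with a median of -0.49.

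Arg1, the arginase of suppressive myeloid cells (chr10:24915221-24927484, minus strand, GRCm38), had the largest fall of the named genes. It stood at 662, 253 and 348 CPM at TP1, at 16.2, 26.6, 17.2 and 27.2 CPM at TP2 and at 4.38, 3.75, 2.57 and 11.9 CPM at TP3. The 3 time points did not overlap, but the rule that took the 12 largest rises and falls required this of TP1 and TP3. The fall was 74.0-fold (log2 fold change -6.21, standard error (SE) 0.78, adjusted p = 0.000135 from edgeR). Arg1 fell again from TP2 to TP3, with a log2 fold change of -1.94. Without TP3 treated replicate 4 the change from TP1 was -6.88.

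Spp1, the secreted phosphoprotein osteopontin (chr5:104435118-104441050, plus strand), followed the same order. Its values were 835, 119 and 756 CPM at TP1, 36.1, 45.9, 30.1 and 15.5 CPM at TP2 and 9.69, 10.3, 9.81 and 6.88 CPM at TP3. Each treated group stood wholly below the one before it, and the log2 fold change from TP1 to TP3 was -5.96 (SE 0.60, adjusted p = 4.37e-05 from edgeR). The TP2 controls held 214, 427 and 187 CPM, so that Spp1 ended below the untreated level, with a log2 fold change of -4.91 against them.

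S100a8 and S100a9, the subunits of calprotectin, a granule protein of neutrophils, fell by 4.12 and 5.0 on the log2 scale (SE 0.65 and 0.64). S100a9 was at 10.7, 4.90 and 21.6 CPM at TP1 and between 0.216 and 0.678 CPM at TP3. Trem1, a receptor that amplifies myeloid activation, was at 21.02, 10.36 and 28.44 CPM at TP1 and between 0.0969 and 0.832 CPM at TP3, a log2 fold change of -5.05 (SE 0.57, adjusted p = 7.47e-05 from edgeR). In these genes no TP3 tumor reached the lowest TP1 tumor, which the rule for the largest changes required. Cxcr2, the receptor of the neutrophil chemokines, fell by 4.23 on the log2 scale, the collagenase gene Mmp8 by 4.80, the iron-binding Lcn2 by 4.74 and Acod1, which makes itaconate in activated macrophages, by 4.68. The rule for named genes also took Fcrlb, an intracellular Fc receptor-like protein, and Rab44, a GTPase of granulocytes and mast cells. They fell by 4.80 and 4.23 and, unlike Cxcr2 and Lcn2, were called in both legs of the path. The log2 fold changes without TP1 treated replicate 3 were -3.33 for Cxcr2, -3.31 for Acod1, -4.04 for Mmp8 and -3.18 for Rab44.

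**Figure D3:**
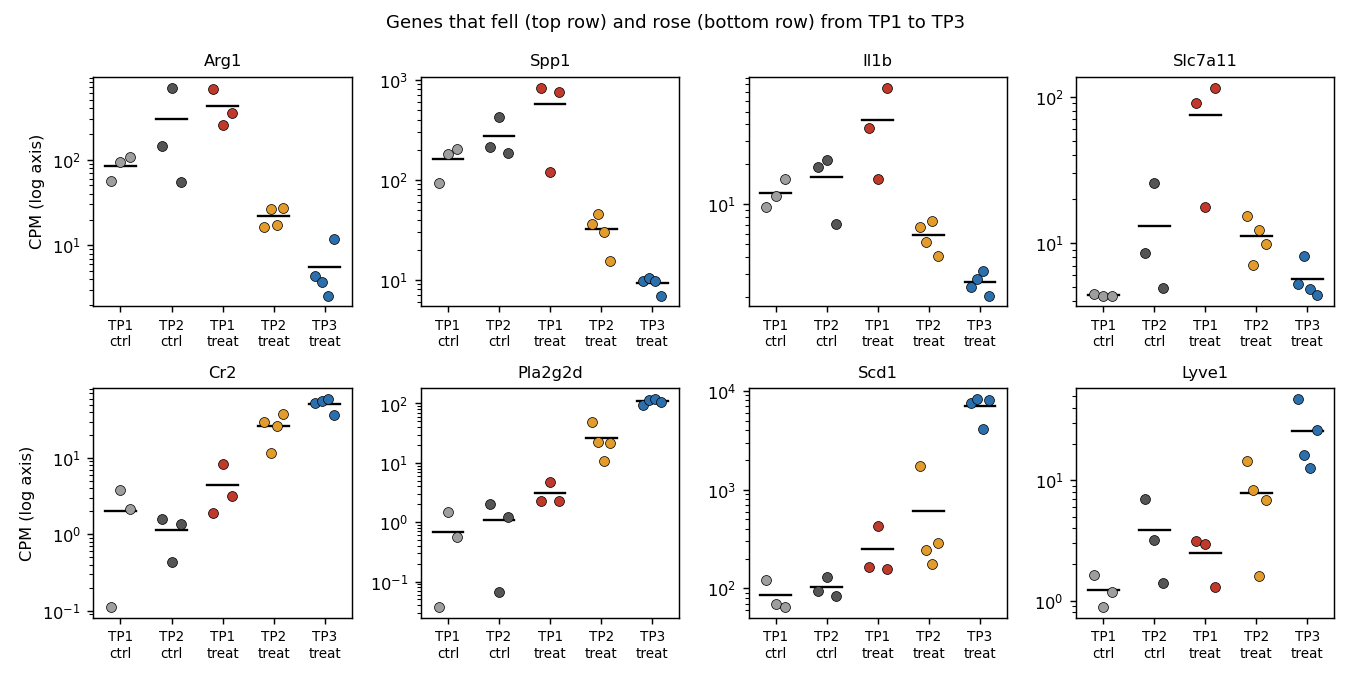
CPM on a log axis of 8 genes in each 60577 tumor, by group, with a line at the group mean. Arg1, Spp1, Il1b and Slc7a11 in the top row have their highest treated group mean at TP1 and their lowest at TP3, and Cr2, Pla2g2d, Scd1 and Lyve1 in the bottom row have their highest at TP3, each without overlap between TP1 and TP3 treated tumors. For Arg1, Spp1 and Pla2g2d the rule that named them required this gap.

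Of the 10 chemokine genes for neutrophils and monocytes, all tested, 8 fell and none rose, with a median of -2.97. In the first leg 8 fell with a median of -2.54, and from TP2 to TP3 none was called and the median was -0.27. The members that fell were the CXCR2 ligands Cxcl1, Cxcl2, Cxcl3 and Cxcl5 and the C-C chemokines that include the monocyte attractants Ccl2 and Ccl7. Cxcl2 was at 26.2, 5.01 and 52.3 CPM at TP1, between 0.809 and 1.79 CPM at TP2 and between 0.381 and 1.23 CPM at TP3. Its TP1 values span a wide range, but all of them lay above those of the later treated tumors (log2 fold change -5.23, SE 1.12, adjusted p = 0.00387 from edgeR). For TP3 the rule for the largest changes required this. Cxcl1 fell by 2.96, Cxcl3 by 4.94 and Cxcl5 by 3.10 on the log2 scale. Ccl2 went from 38.3, 42.3 and 48.98 CPM to between 10.6 and 13.4 CPM, a log2 fold change of -1.90 (SE 0.25), and Ccl7 fell by 1.69. The call of Ccl3 (log2 fold change -2.98, adjusted p = 0.0251 from edgeR) was lost without TP1 treated replicate 1 (adjusted p = 0.0578) or 3 (0.113) and without TP3 treated replicate 1 (0.0676), 2 (0.0557) or 3 (0.0593). Cxcl2 stood at -4.40 and Cxcl5 at -2.35 without TP1 treated replicate 3.

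The promoters of the neutrophil chemokines are shown because these genes fell together and share a motif. NF-kB is the transcription factor that switches on many such genes in inflammation. The motif, GGG and TTTCC with any 2 bases between them, was searched on both strands of the 250 bases before the transcription start in RefSeq promoters of GRCm38.p6. It was found in 3 of the 6 chemokine genes on the list that had a promoter in the table (50%), in 3 of 10 inflammatory cytokine genes (30%) and in 1.65% of all 27025 genes. The 3 chemokine promoters lie within 1 cluster on chromosome 5, at chr5:90890995-90891244 (Cxcl1), chr5:90903649-90903898 (Cxcl2) and chr5:90785851-90786100 (Cxcl3), all on the plus strand, with matches on either strand in capitals.
Cxcl1: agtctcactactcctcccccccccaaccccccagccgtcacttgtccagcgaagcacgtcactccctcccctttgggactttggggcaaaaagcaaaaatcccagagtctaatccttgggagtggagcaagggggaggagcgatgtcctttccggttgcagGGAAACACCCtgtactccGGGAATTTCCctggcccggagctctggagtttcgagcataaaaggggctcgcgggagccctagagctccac
Cxcl2: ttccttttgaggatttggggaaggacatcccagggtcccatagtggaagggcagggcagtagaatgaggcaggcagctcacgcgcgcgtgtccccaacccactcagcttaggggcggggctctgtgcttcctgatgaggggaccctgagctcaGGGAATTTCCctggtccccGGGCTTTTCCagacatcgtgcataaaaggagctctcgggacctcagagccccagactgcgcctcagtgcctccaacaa
Cxcl3: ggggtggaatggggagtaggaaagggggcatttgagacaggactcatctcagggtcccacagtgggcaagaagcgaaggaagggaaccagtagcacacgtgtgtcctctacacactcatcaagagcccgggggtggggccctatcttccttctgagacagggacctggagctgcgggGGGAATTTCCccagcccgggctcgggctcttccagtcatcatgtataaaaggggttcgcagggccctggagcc
Cxcl1 and Cxcl2 hold 2 matches each and Cxcl3 holds 1. A match is a description of the sequence, and binding was not measured.

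Among inflammatory cytokines and their antagonists, 9 of 12 genes were tested, and 4 fell, none rose and the median was -1.28. Il1b, the cytokine of the inflammasome, was at 37.7, 15.4 and 75.8 CPM at TP1, at 6.72, 5.16, 7.48 and 4.09 CPM at TP2 and at 2.36, 2.74, 3.15 and 2.04 CPM at TP3. The time points did not overlap, and the log2 fold change was -4.06 (SE 0.47, adjusted p = 8.99e-05 from edgeR), or -3.37 without TP1 treated replicate 3. Il6 fell by 3.03 on the log2 scale and Ptgs2, which encodes the prostaglandin synthase COX-2, by 3.19. Against TP2 controls at TP3, Il1b was 2.64 lower on the log2 scale and Il6 was 1.04 lower without passing the test.

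The fibrillar matrix and its remodeling enzymes came down in the same first leg. Of 26 fibrillar matrix and crosslinking genes, all tested, 12 fell and none rose, with a median of -0.84. Their summed level was 51412, 30984 and 41811 CPM at TP1, between 13852 and 20892 CPM at TP2 and between 14763 and 17542 CPM at TP3, beside 18051 to 26450 CPM in TP2 controls. In the first leg 10 fell with a median of -0.98, beside 2.44% of all genes. From TP2 to TP3 1 rose with a median of 0.16, a share near the 3.47% of all genes. Without TP1 treated replicate 1 or 3 the count of members called was 9.

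Col1a1, a chain of type I collagen, was at 10307, 5558 and 9440 CPM at TP1, at 2279, 4064, 3099 and 3323 CPM at TP2 and at 2016, 2159, 1827 and 1658 CPM at TP3. All TP3 values lay below all TP2 values, which lay below all TP1 values, and the change from TP1 to TP3 was 4.40-fold (log2 fold change -2.14, SE 0.27, adjusted p = 0.000135 from edgeR). Its partner chain Col1a2 fell by 1.60, the type III collagen gene Col3a1 by 1.51 and the type V gene Col5a2 by 1.45. Vcan, the large proteoglycan versican, went from 591, 279 and 664 CPM to between 116 and 135 CPM, a log2 fold change of -2.02 (SE 0.29). Tnc, a glycoprotein of healing matrix, fell by 1.78 and Fn1, fibronectin, by 1.28. The crosslinking enzyme genes Loxl2 and Lox fell by 1.15 and 1.13, but the groups overlapped for Lox. The call of Loxl2 was lost without TP1 treated replicate 1 (adjusted p = 0.0734 from edgeR), and that of Lox without TP1 treated replicate 1 (0.0953) or 3 (0.101) or without TP3 treated replicate 1 (0.0629), 3 (0.0539) or 4 (0.0661).

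Of 22 genes for matrix proteases and their inhibitors 21 were tested, and 10 fell and 1 rose, with a median of -0.81. Mmp12, the elastase of macrophages, was at 788, 70.7 and 641 CPM at TP1 and between 23.6 and 67.2 CPM at TP3, a log2 fold change of -3.56 (SE 0.71, adjusted p = 0.00257 from edgeR). Replicate 2 at TP1 stood just above the highest TP3 tumor. The collagenase gene Mmp13 fell by 4.74, the stromelysin gene Mmp3 by 3.38, Adam8 by 3.58 and the aggrecanase gene Adamts4 by 2.57. The inhibitor Timp1 moved with the proteases, from 265, 91.9 and 312 CPM to between 12.05 and 16.4 CPM (log2 fold change -4.02, SE 0.55). Mmp2, a gelatinase of fibroblasts, fell by 1.04, a call that was lost without TP1 treated replicate 1 (adjusted p = 0.0522 from edgeR) or 3 (0.059). The member that rose was Adamts5, a versican- and aggrecan-cleaving protease. It was at 49.7, 127 and 51.4 CPM at TP1, at 106, 45.1, 47.4 and 58.8 CPM at TP2 and at 245, 337, 197 and 177 CPM at TP3 (log2 fold change 1.65, SE 0.38, adjusted p = 0.00565 from edgeR). TP1 and TP3 did not overlap, and the rise was called in the second leg only, although the difference between the legs was not tested. Without TP1 treated replicate 1 or 3 the count of protease genes called was 7. The fold change of Mmp3 was -2.33 without replicate 3 and that of Adamts5 2.24 without replicate 2, both on the log2 scale.

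Hypoxia and glycolysis genes and the oxidative stress genes also fell. Of 18 hypoxia and glycolysis genes, all tested, 9 fell and none rose, with a median of -0.97. Slc16a3, which exports lactate, was at 176, 117 and 163 CPM at TP1, at 54.1, 78.9, 54.96 and 55.3 CPM at TP2 and at 28.7, 31.6, 32.5 and 27.7 CPM at TP3. Each group lay below the one before it, with a log2 fold change from TP1 to TP3 of -2.33 (SE 0.26, adjusted p = 7.28e-05 from edgeR). The glucose transporter gene Slc2a1 fell by 1.88, the glycolytic Pgk1 by 1.56, the carbonic anhydrase gene Car9 by 1.92 and the oxygen sensor gene Egln3 by 1.75. Vegfa, the main growth factor of blood vessels, fell by 1.38, a call that was lost without TP1 treated replicate 1 (adjusted p = 0.0862 from edgeR). At TP1 4 of the 18 were lower than in the TP1 controls (median -0.19), beside 5.96% of all genes, and the summed level of 4917, 3261 and 4168 CPM lay below the 5697, 5127 and 5933 CPM of those controls. At TP3 15 of 18 were lower than in TP2 controls with a median of -1.96, beside 10.2% of all genes. The summed level of this list was 15309 CPM in TP2 control replicate 2 and 6091 and 5339 CPM in the other two TP2 controls.

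Of 11 genes of NRF2, glutathione and metallothionein, all tested, 6 fell and none rose, with a median of -1.02. Slc7a11, the cystine importer that feeds glutathione, was at 90.5, 17.5 and 115 CPM at TP1, between 7.09 and 15.2 CPM at TP2 and between 4.39 and 8.15 CPM at TP3, a log2 fold change of -3.72 (SE 0.57, adjusted p = 0.000528 from edgeR). The 6 control tumors held between 4.34 and 25.7 CPM. Srxn1, which repairs oxidized peroxiredoxins, fell by 1.27, and the heme oxygenase gene Hmox1 fell by 2.17, a call that was lost without TP1 treated replicate 1 (adjusted p = 0.0511 from edgeR). The list had 3 members called without TP1 treated replicate 1 or 3.

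Targets of p53 respond to DNA damage. Of 19 targets, all tested, 12 were above the time-matched controls at TP1, beside 9.65% of all genes. From TP1 to TP3 2 fell and none rose, a share near the 11.0% of all genes called, with a median of -0.27. Mdm2, the feedback inhibitor of p53, went from 107, 91.5 and 132 CPM to between 51.7 and 55.7 CPM, without overlap (log2 fold change -1.04, SE 0.16, adjusted p = 0.000495 from edgeR), and was -0.89 without TP1 treated replicate 3. Without TP1 treated replicate 1 or 3, 1 p53 target was called. Cdkn1a, the cell cycle inhibitor p21, was at 183, 175 and 179 CPM at TP1 and between 62.5 and 81.0 CPM at TP3 but did not pass the test (log2 fold change -1.32, adjusted p = 0.0897 from edgeR), although it passed when only the compared groups were fitted (adjusted p = 0.000551). Bax, an effector of apoptosis, was at 55.2, 51.6 and 64.1 CPM and at 27.1 to 33.5 CPM, a log2 fold change of -0.93 that missed the limit on size. Eda2r, a death receptor of the TNF family, stood at 21.9, 25.1 and 8.995 CPM at TP1 and at 31.0, 22.9, 29.4 and 35.8 CPM at TP3, and 0.960 to 2.66 CPM in the 6 controls. TP1 and TP3 overlapped (adjusted p = 0.176 from edgeR), and at TP3 Eda2r was still 4.48 above the TP2 controls on the log2 scale.

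Cell division genes, which were already below the controls at TP1, went lower. Of 22 mitosis genes, all tested, 16 fell from TP1 to TP3 and none rose, with a median of -1.19. All 22 had been lower than in the controls at TP1 (median -1.84), beside 5.96% of all genes. In each leg all 22 had a negative log2 fold change, but few were called. None was called from TP1 to TP2 (median -0.47), and 1 fell from TP2 to TP3 (median -0.72), beside 4.4% of all genes. The summed level of the list was 468, 399 and 332 CPM at TP1, between 252 and 412 CPM at TP2, between 152 and 232 CPM at TP3 and between 1242 and 1581 CPM in the 6 controls. Birc5, the spindle protein survivin, was at 9.77, 8.47 and 8.12 CPM at TP1 and at 2.94, 2.96, 2.77 and 3.49 CPM at TP3. The groups did not overlap and the spread was small (log2 fold change -1.53, SE 0.13, adjusted p = 1.54e-05 from edgeR). The motor protein genes Kif20a and Kif11 fell by 1.65 and 1.52, the topoisomerase gene Top2a by 1.32 and the cyclin gene Ccnb1 by 1.31. Ccnb2 fell by 1.19 with overlapping groups and lost its call without TP1 treated replicate 1 (adjusted p = 0.0817 from edgeR). Mki67 and Cdc20 missed the limit on size, with log2 fold changes of -0.96 and -0.80. Mki67 lay so near it that 7 alternatives called it, with values of -1.01 to -1.17. Of 23 DNA replication genes, all tested, 7 fell and none rose, with a median of -0.84 (all genes lower: 5.15%). Among them Mcm10 fell by 1.83 and Cdc6 by 1.46, whose products load the replicative helicase or start it.

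Promoters of mitosis genes often carry the CCAAT box, bound by NF-Y, and the CHR element, bound by the DREAM complex that represses the genes in resting cells. They are shown because the group fell together. In the 250 bases before the start, on both strands, CCAAT was found in 16 of the 18 mitosis genes with a promoter in the table (88.9%), in 11 of 17 DNA replication genes (64.7%) and in 37.5% of all genes. TTTGAA, the CHR letters, was found in 7 of 18 (38.9%), 3 of 17 (17.6%) and 18.3%. The promoters of Ccnb2 (chr9:70421555-70421804), Cdc20 (chr4:118437344-118437593) and Top2a (chr11:99024190-99024439), all on the minus strand and written 5′ to 3′ toward the start, carry both, in capitals for either strand.
Ccnb2: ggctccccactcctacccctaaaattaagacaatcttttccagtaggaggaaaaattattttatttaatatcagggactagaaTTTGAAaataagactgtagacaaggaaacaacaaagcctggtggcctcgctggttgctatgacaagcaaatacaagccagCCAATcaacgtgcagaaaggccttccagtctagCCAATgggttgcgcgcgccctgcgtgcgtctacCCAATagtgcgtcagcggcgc
Cdc20: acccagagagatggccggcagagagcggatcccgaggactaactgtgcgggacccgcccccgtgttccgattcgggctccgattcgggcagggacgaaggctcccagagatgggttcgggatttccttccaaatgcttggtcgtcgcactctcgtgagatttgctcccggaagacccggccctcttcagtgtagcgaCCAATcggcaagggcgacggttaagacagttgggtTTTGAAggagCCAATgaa
Top2a: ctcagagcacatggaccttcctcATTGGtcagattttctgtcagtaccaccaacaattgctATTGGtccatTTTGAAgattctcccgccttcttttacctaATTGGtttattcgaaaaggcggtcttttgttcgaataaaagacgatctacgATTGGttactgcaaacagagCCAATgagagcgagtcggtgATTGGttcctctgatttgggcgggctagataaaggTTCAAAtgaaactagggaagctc
Cdc20 itself was not called. Binding was not measured here.

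Epithelial markers, which the tumor cells carry, stood between 372 and 717 CPM in sum at TP1, between 253 and 375 CPM at TP3 and between 1723 and 3194 CPM in the 6 controls. Of 16 genes 11 were tested, and 4 fell and none rose, with a median of -0.55. Cdh1, the adhesion protein E-cadherin, was at 40.2, 29.1 and 26.3 CPM at TP1, between 9.88 and 18.5 CPM at TP2 and between 7.87 and 9.41 CPM at TP3 (log2 fold change -1.94, SE 0.24, adjusted p = 0.000131 from edgeR), without overlap between time points. The keratin genes Krt18 and Krt8 fell by 1.64 and 1.3 on the log2 scale, and both calls were lost in the fit with HGS2 tumors (adjusted p = 0.11 and 0.32). Krt19 stood at 178, 241 and 94.7 CPM at TP1 and at 115, 87.1, 119 and 174 CPM at TP3, and its groups overlapped (adjusted p = 0.301). Keratin RNA was thus still present in every TP3 tumor. Mesothelial cells, which share keratins with the tumor cells, showed 0 of 11 genes called by edgeR and a median of 0.10, with up to 2 called under other settings with all tumors and 1 without TP1 treated replicate 3 or TP3 treated replicate 3 or 4.

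Macrophage genes were called in both directions. Of 18 macrophage genes, all tested, 2 rose and 3 fell, with a median of 0.19, beside 11.0% of all genes called. The summed level was between 3837 and 4837 CPM at TP1, between 1786 and 4365 CPM at TP2 and between 4990 and 5355 CPM at TP3. Those that fell were Spp1, Cd14, the co-receptor for bacterial lipopolysaccharide (log2 fold change -1.63), and Trem2, a lipid receptor of tumor and lipid-associated macrophages. Trem2 went from 122, 70.1 and 115 CPM at TP1 through 52.0, 53.2, 55.9 and 53.5 CPM at TP2 to 26.6, 30.3, 30.4 and 35.9 CPM at TP3, without overlap at any step (log2 fold change -1.74, SE 0.17, adjusted p = 3.66e-05 from edgeR). The 2 that rose, Cd163 and Timd4, are among the genes of resident macrophages, while Mrc1 and Folr2 on the same list were not called. Which macrophages carried this RNA was not tested. Cd163, the hemoglobin scavenger receptor, was at 1.61, 2.56 and 0.791 CPM at TP1, at 3.80, 5.47, 4.88 and 5.37 CPM at TP2 and at 15.4, 9.88, 10.6 and 12.1 CPM at TP3 (log2 fold change 2.85, SE 0.51, adjusted p = 0.00138 from edgeR). Timd4, a receptor for apoptotic cells, was at 2.14, 6.70 and 1.04 CPM at TP1 and at 40.3, 12.2, 15.8 and 40.3 CPM at TP3 (log2 fold change 3.04, adjusted p = 0.0132), and lost its call without TP1 treated replicate 1 (0.0631) or 3 (0.0648). Csf1r, the receptor that all macrophages need, stood at 284, 272 and 273 CPM and at 469, 442, 443 and 489 CPM and did not pass (adjusted p = 0.0534 from edgeR). Timd4 stood at 4.07 when TP1 treated replicate 2 was left out.

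Lyve1, which marks tissue macrophages as well as lymphatic endothelium, was at 3.15, 2.98 and 1.29 CPM at TP1 and at 47.5, 16.3, 12.6 and 26.3 CPM at TP3 (log2 fold change 3.37, SE 0.70, adjusted p = 0.00337 from edgeR). On the lymphatic list of 6 genes, all tested, 3 rose, 1 fell and the median was 3.86. Flt4, the lymphatic VEGF receptor, was the one that fell (log2 fold change -1.35), from between 131 and 147 CPM to between 53.04 and 56.6 CPM, and Reln rose by 5.04 (SE 1.15). The summed lymphatic level was lower in every TP3 tumor (130.1, 103, 72.5 and 122 CPM) than in any TP1 tumor (143, 153 and 134 CPM), opposite to the median. Of 8 monocyte genes 2 rose and 1 fell (median 0.52), beside 11.0% of all genes called. The summed monocyte level overlapped, at 337, 352 and 294 CPM at TP1 and 336, 333, 290 and 310 CPM at TP3. The log2 fold changes on the list ran from -3.73 to 3.18, the latter that of Ly6c2. Ly6c2, the antigen of classical monocytes, was at 0.435, 3.20 and 2.21 CPM at TP1 and at 13.7, 14.1, 21.4 and 21.2 CPM at TP3 (log2 fold change 3.18, SE 0.59). Of 9 dendritic cell genes 4 rose and 1 fell (median 0.94), among them Clec9a, the receptor for dead-cell actin on cross-presenting cells (log2 fold change 2.21), which had risen by TP2. The summed dendritic level went the other way, from 229, 219 and 259 CPM at TP1 to 209.8, 200.8, 181 and 200.5 CPM at TP3, without overlap. Without TP1 treated replicate 1 or 3, 1 dendritic cell gene was called, without TP3 treated replicate 1 or 3, 3 were, and without TP3 treated replicate 2, 5 monocyte genes were.

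Lymphocyte genes rose, with T cell genes called in the first leg and immunoglobulin genes in the second, although the difference between the legs was not tested. With the 7SL share as a covariate 7 genes in all were called in the second leg, so that these calls cannot be told apart from that share. Of 20 T cell genes, all tested, 11 rose and none fell from TP1 to TP3, with a median of 1.48 (all genes higher: 5.87%). The first leg held 9 rises, with a median of 1.35, and from TP2 to TP3 none was called and the median was 0.09. The summed level was 104, 225 and 136 CPM at TP1, between 304 and 490 CPM at TP2, between 362 and 442 CPM at TP3 and between 30.1 and 80.6 CPM in the 6 controls. Cd28, the main co-stimulatory receptor, was at 3.08, 7.27 and 3.25 CPM at TP1, at 20.9, 11.7, 10.3 and 12.01 CPM at TP2 and at 15.1, 16.6, 16.7 and 18.7 CPM at TP3. TP1 lay below the rest, and TP2 and TP3 overlapped (log2 fold change 1.89, SE 0.37, adjusted p = 0.00223 from edgeR). Tcf7, a transcription factor of naive and memory T cells, rose by 1.18. The calls of Cd3e (log2 fold change 1.48) and Cd4 (2.02) were lost without TP1 treated replicate 1 (adjusted p = 0.0671 and 0.102 from edgeR) or 3 (0.0716 and 0.103). The count of T cell genes called was 2 without TP1 treated replicate 1, 3 without replicate 3, 13 without replicate 2, and 8 or 9 without any single TP3 tumor. The log2 fold change was 2.17 for Cd3e and 2.77 for Cd4 without TP1 treated replicate 2.

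Of 16 genes of cytotoxic, NK and Th1 cells 11 were tested, and 6 rose and none fell (median 1.80). Fasl, the death ligand of cytotoxic cells, was at 0.167, 0.188 and 0.375 CPM at TP1 and at 0.852, 1.298, 1.32 and 1.16 CPM at TP3 (log2 fold change 2.25, SE 0.43, adjusted p = 0.00191 from edgeR), and the NK receptor gene Klrb1c rose by 2.27, a call lost with the pancreas genes as a covariate (adjusted p = 0.0815) and in the fit with HGS2 tumors (0.0688). Without TP1 treated replicate 1, 2 or 3 the count was 2, 4 and 3, and without TP3 treated replicate 1 or 4 it was 3. Of 14 genes of regulatory T cells and checkpoints 1 rose and 1 fell (median 0.36), a share near the 11.0% of all genes called. In all, 1 was called without TP1 treated replicate 1 or 3 or TP3 treated replicate 2 or 4. Pdcd1, the checkpoint receptor PD-1, was at 20.2, 21.7 and 22.7 CPM at TP1, at 20.7, 17.2, 16.1 and 12.2 CPM at TP2 and at 9.38, 9.12, 8.70 and 10.2 CPM at TP3. The TP3 tumors lay below all others (log2 fold change -1.20, SE 0.22, adjusted p = 0.00165 from edgeR).

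All 15 B cell genes on the list were tested and all 15 rose from TP1 to TP3, with a median of 3.12. In the first leg 12 rose (median 2.13), and from TP2 to TP3 1 rose (median 0.69). The summed level was 60.02, 189 and 76.5 CPM at TP1, 429, 201, 455 and 506 CPM at TP2, 641, 809, 747 and 651 CPM at TP3 and between 25.3 and 76.9 CPM in the 6 controls. The TP3 tumors lay above every other tumor. The count was 13 without TP1 treated replicate 1, 14 without replicate 3 and 15 without replicate 2, where the median was 4.03.

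Cr2, the complement receptor of mature and follicular B cells (chr1:195136811-195176716, minus strand), was at 1.91, 8.36 and 3.17 CPM at TP1, at 29.4, 11.8, 26.1 and 37.5 CPM at TP2 and at 52.4, 55.9, 59.3 and 36.1 CPM at TP3. The TP1 tumors lay below the rest, and the rise to TP3 was 11.4-fold (log2 fold change 3.51, SE 0.70, adjusted p = 0.00257 from edgeR). Ms4a1, the antigen CD20, rose by 3.50, the B cell receptor subunit Cd79a by 3.40, the lineage factor Pax5 by 3.12, the co-activator Pou2af1 by 3.51 and the follicle homing receptor Cxcr5 by 3.31. These rises were larger without TP1 treated replicate 2, at 4.33 for Cr2, 4.79 for Ms4a1, 4.72 for Cd79a, 4.07 for Pax5, 4.87 for Pou2af1 and 4.40 for Cxcr5. The octamer ATGCAAAT, a motif of many immunoglobulin promoters, was in 0 of the 10 B cell genes with a promoter in the table, in 0 of 12 T cell genes and in 1.81% of all genes, over the same 250 bases and both strands, which says only that these letters are not in these windows. Cxcl13, the ligand of Cxcr5, was at 9.04, 28.6 and 3.17 CPM at TP1, at 34.0, 11.7, 4.94 and 18.3 CPM at TP2 and at 121, 81.2, 79.2 and 104 CPM at TP3. Cxcl13 rose by 2.48 on the log2 scale in the second leg and by 2.82 over the whole path (SE 0.73, adjusted p = 0.0115 from edgeR). The difference between the legs was not tested, and with the 7SL share as a covariate 7 genes in all were called in the second leg. Over the whole path Cxcl13 was not called without TP1 treated replicate 1 (0.0581), and stood at 3.97 without replicate 2. On the list of lymphoid aggregate signals, 10 of 11 were tested, 3 rose and 1 fell (median 1.20), and 2 in all were called without TP1 treated replicate 1 or 3. Tnfsf11, the cytokine RANKL, was the member that fell, by 2.24, and its call was lost without TP1 treated replicate 3 (log2 fold change -1.23, adjusted p = 0.0604 from edgeR).

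Pla2g2d, a lipase of lymphoid tissue that limits immune responses (chr4:138775735-138782046, plus strand), was among the 12 largest rises that the rule took. It stood at 2.24, 4.71 and 2.29 CPM at TP1, at 49.1, 22.3, 10.6 and 21.9 CPM at TP2 and at 94.4, 116, 119 and 106 CPM at TP3. TP2 lay between TP1 and TP3 without overlap, while the gap between TP1 and TP3 was required by the rule. Both legs were called (log2 fold change from TP1 to TP3 5.14, SE 0.73, adjusted p = 0.000318 from edgeR).

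Of 15 genes of plasma cells and immunoglobulin constant regions 14 were tested, and 9 rose and 1 fell, with a median of 3.14. From TP1 to TP2, 1 rose and 1 fell (median 0.62), and from TP2 to TP3 7 rose (median 2.51). The summed level was 616, 1349 and 569 CPM at TP1, 1775, 529, 533 and 692 CPM at TP2 and 5136, 5007, 7881 and 5184 CPM at TP3. TP1 replicate 2 and TP2 replicate 1 stood apart from their groups but below every TP3 tumor. Mzb1, a chaperone of antibody-secreting cells, was at 1.00, 5.54 and 0.666 CPM at TP1 and at 21.8, 25.2, 45.2 and 24.0 CPM at TP3 (log2 fold change 3.59, SE 0.83, adjusted p = 0.00602 from edgeR), and Irf4, a factor of plasma cells and activated T cells, rose by 2.05. Sdc1 was the member that fell (log2 fold change -2.10, SE 0.26). It encodes syndecan-1, which epithelial cells carry as well as plasma cells. Among variable segments of immunoglobulins 46 of 69 rose and none fell (median 4.00), with sums of 15.4, 160 and 4.29 CPM at TP1 and between 643 and 1291 CPM at TP3. Mzb1 stood at 5.10 and Irf4 at 2.86 without TP1 treated replicate 2.

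The constant region genes rest on fewer safe calls, since TP1 replicate 2 was far above the others. Ighm, the heavy chain of IgM, stood at 44.5, 602 and 28.03 CPM at TP1 and at 2467, 1842, 2427 and 2905 CPM at TP3 (log2 fold change 3.42, adjusted p = 0.0482 from edgeR). Without replicate 2 the log2 fold change was 6.05 (adjusted p = 0.00542), while without replicate 1 or 3 the adjusted p was 0.15 and 0.151 and without a single TP3 tumor between 0.0637 and 0.078. Jchain, which joins polymeric IgM and IgA, was as unsteady, with an adjusted p of 0.0476, of 0.153 and 0.148 without TP1 replicates 1 and 3 and of 0.0645 to 0.086 without a TP3 tumor. Igkc, the kappa constant region (4.17, adjusted p = 0.0308), was lost without TP1 replicates 1 (0.111) and 3 (0.102) or TP3 replicate 3 (0.0558). The IgG genes differed widely between mice. Ighg3 stood at 3.68, 20.9 and 1.29 CPM at TP1 and at 33.2, 746, 669 and 132 CPM at TP3 (log2 fold change 5.52, SE 1.32). Ighg1 stood at 6.66, 27.5 and 1.33 CPM at TP1 and at 423, 213, 1524 and 130 CPM at TP3 (adjusted p = 0.0454 from edgeR). Its call was lost on leaving out any 1 of the 7 tumors (adjusted p between 0.0504 and 0.148). Iglc2, a lambda constant region, rose by 4.81 (SE 0.87), and reads of near-identical lambda genes may be split between copies. Without TP1 replicate 2 the log2 fold change was 6.67 for Igkc, 7.29 for Ighg3 and 6.31 for Iglc2, and without TP3 replicate 3 that of Iglc2 was 4.16. In place of 10 plasma cell genes, 5 were called with the 7SL share as a covariate, 5 without TP1 replicate 1 or 3 and 6 without TP3 replicate 2 or 3.

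**Figure D4:**
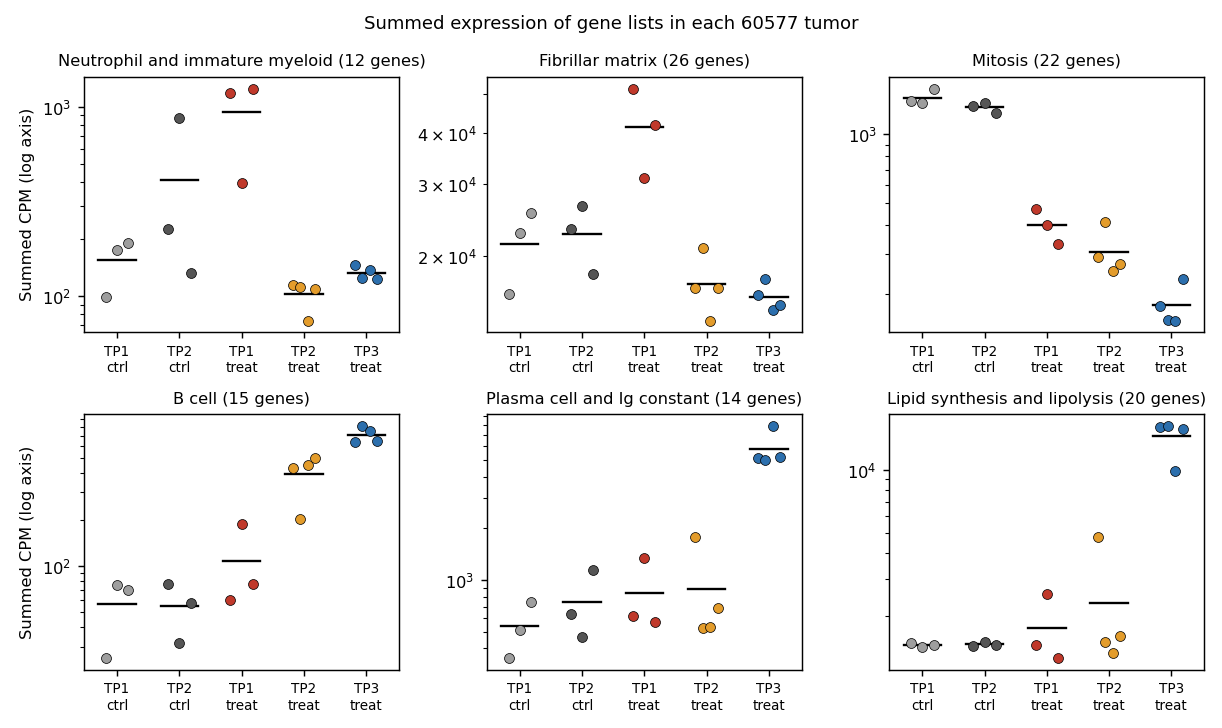
Summed CPM, on a log axis, of the genes tested on 6 lists in each 60577 tumor, by group. Neutrophil, fibrillar matrix and mitosis sums are lower at TP3 than at TP1 in every treated tumor, and B cell, plasma cell and lipid sums are higher, with TP1 treated replicate 2 nearest to TP3 for most of them.

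Of 11 MHC class II genes 4 rose and none fell (median 1.09), 4 rose from TP1 to TP2 (median 1.10) and none was called in the second leg (median 0.13). The members that rose include the B cell chaperone genes H2-Oa, H2-Ob and H2-DMb2. H2-Ob was at 2.44, 8.81 and 5.12 CPM at TP1, at 20.7, 14.4, 38.8 and 31.4 CPM at TP2 and at 25.8, 31.6, 29.4 and 24.5 CPM at TP3 (log2 fold change 2.35, SE 0.54). H2-DMb2 rose by 1.57 and H2-Oa by 2.25. The calls of H2-Oa and H2-Ob were lost with the pancreas genes as a covariate (adjusted p = 0.0639 and 0.0517), and those of all 3 in the fit with HGS2 tumors. Cd74, the invariant chain found in all antigen-presenting cells, stood at 827, 1913 and 1081 CPM and at 2895, 2210, 2431 and 2906 CPM without passing the test (log2 fold change 1.03, adjusted p = 0.105 from edgeR). The count of class II genes was 8 without TP1 treated replicate 2 and 3 without replicate 1 or 3. Without replicate 2 H2-Oa stood at 3.02.

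Fat genes rose from TP2 to TP3, and some stood above the controls before that. Of 20 genes of lipid synthesis and lipolysis, all tested, 15 rose from TP1 to TP3 and none fell, with a median of 2.00. None was called from TP1 to TP2 (median 0.08), and 16 rose from TP2 to TP3 (median 1.84). At TP1 7 of the 20 were higher than in TP1 controls (median 0.77), beside 9.65% of all genes. The summed level was 1460, 2547 and 1258 CPM at TP1, 4769, 1494, 1325 and 1611 CPM at TP2, 15947, 16149, 9882 and 15669 CPM at TP3 and between 1425 and 1502 CPM in the 6 controls. Every TP3 tumor stood above every other tumor, and TP2 replicate 1 was the highest of the rest. Of the TP1 tumors only replicate 2 lay above the range of the controls. The 7SL share moved with this leg, and its part in it was not tested beyond the covariate, with which 7 genes in all were called from TP2 to TP3 and 14 lipid genes from TP1 to TP3.

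Scd1, which desaturates newly made fatty acids (chr19:44394455-44407879, minus strand), was at 164, 427 and 157 CPM at TP1, at 1741, 244, 175 and 291 CPM at TP2 and at 7476, 8290, 4084 and 8138 CPM at TP3. The change from TP1 to TP3 was 28.1-fold (log2 fold change 4.81, SE 0.80, adjusted p = 0.000822 from edgeR). Fasn, the fatty acid synthase, was at 289, 469 and 283 CPM at TP1 and at 3656, 3061, 2103 and 3408 CPM at TP3 (log2 fold change 3.14, SE 0.37, adjusted p = 9.66e-05). In the control tumors Fasn stood between 408 and 575 CPM, so that TP1 lay within or below the untreated range and TP3 far above it. Acaca, which makes the building block of fatty acids, rose by 2.53 (SE 0.26) and Thrsp, a regulator of fat synthesis (chr7:97412938-97417730, minus strand), by 5.21. Dgat2, the last step of triglyceride synthesis, rose by 3.67, Lpin1 by 1.59 and Agpat2 by 1.74. Lipid release genes rose too, Pnpla2 and Lipe, the lipases of stored fat, by 2.26 and 2.08, and Lpl, which takes up fat from lipoproteins, by 1.92. Pnpla3, a lipid droplet enzyme, was among the 12 largest rises, from 0.100, 2.30 and 0.0417 CPM to 29.1, 44.4, 19.3 and 13.6 CPM (log2 fold change 5.02, SE 0.95). Another was Tmem45b, a membrane protein, from 0.0669, 1.73 and 0.0833 CPM to 37.1, 36.6, 34.7 and 26.2 CPM (5.74, SE 1.00). Several of these rises were larger without TP1 treated replicate 2, whose fat-cell RNA was the highest at TP1. On the log2 scale they were then 5.44 for Scd1, 9.16 for Thrsp, 5.53 for Dgat2, 2.89 for Pnpla2, 3.15 for Lipe, 8.404 for Pnpla3 and 8.73 for Tmem45b.

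Of 16 genes of adipocyte identity 14 were tested, and 9 rose and none fell, with a median of 3.22. None was called from TP1 to TP2 (median 0.51) and 10 rose from TP2 to TP3 (median 2.62). At TP1 13 of the 14 were already higher than in TP1 controls, with a median of 5.08, beside 9.65% of all genes. These are differences between group means, and TP1 replicate 2 held most of the adipocyte RNA of its group. The list median of that comparison without this tumor is not given here. The summed level was 186, 2099 and 118 CPM at TP1, 2883, 571, 480 and 528 CPM at TP2 and 6793, 6918, 5826 and 5104 CPM at TP3, beside 48.9 to 103 CPM in the 6 controls. TP1 replicate 2 and TP2 replicate 1 were rich in adipocyte RNA but below every TP3 tumor. Pparg, the master regulator of fat cells, was at 5.89, 13.9 and 4.54 CPM at TP1, between 7.32 and 20.2 CPM at TP2 and between 34.5 and 49.1 CPM at TP3 (log2 fold change 2.38, SE 0.39, adjusted p = 0.000796 from edgeR). The adipocyte factor Cebpa rose by 1.34, the fat-cell adrenergic receptor Adrb3 by 4.19 and the hormone gene Retn by 5.08. With TP1 treated replicate 2 left out, Pparg stood at 3.02, Adrb3 at 8.03 and Retn at 8.36. Adrb3 lost its call with the pancreas genes as a covariate (adjusted p = 0.084).

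Adipoq, the hormone adiponectin, stood at 2.88, 75.9 and 1.12 CPM at TP1, at 159, 26.8, 8.21 and 13.3 CPM at TP2 and at 424, 430, 362 and 290 CPM at TP3. Its rise of 3.82 on the log2 scale (SE 1.26, adjusted p = 0.0362 from edgeR) became 7.53 (adjusted p = 0.0013) without TP1 treated replicate 2, and lost its call without TP1 treated replicate 1 (0.113) or 3 (0.103) or any TP3 tumor (0.0502 to 0.0616). Lep, leptin, depended on the same tumors (3.81, adjusted p = 0.022), with 8.03 (adjusted p = 0.000261) without replicate 2 and adjusted p-values of 0.074 and 0.0619 without replicates 1 and 3. Plin1, Cfd and Car3, further fat-cell genes, were not called by edgeR with all tumors (adjusted p = 0.0517, 0.112 and 0.0733) and were called without TP1 treated replicate 2 (log2 fold changes 6.32, 8.13 and 6.86). With all tumors limma-voom called all of them (adjusted p = 0.00266, 0.00666 and 0.0102), and DESeq2's Wald test called Plin1 (0.0116) and Car3 (0.0121). In all, 14 of 14 adipocyte genes were called without replicate 2 (median 6.62), 4 without replicate 1 and 5 without replicate 3. With the pancreas genes as a covariate 3 were called, and with the 7SL share 5, while the lipid list kept counts of 15 and 14. Whether the pieces at TP3 held more fat tissue was not tested.

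Stromal genes were called in both directions. Of 15 fibroblast and myofibroblast genes 2 rose and none fell (median 0.51), beside 5.87% of all genes higher, with 5 rising in the second leg (median 0.90), beside 3.47%. Their summed level was 1970, 2121 and 1668 CPM at TP1 and 3542, 3487, 3641 and 4086 CPM at TP3, without overlap. Dcn, the proteoglycan decorin of resting fibroblasts, was at 856, 947 and 573 CPM at TP1, at 1512, 1041, 315 and 541 CPM at TP2 and at 2108, 1788, 2198 and 2622 CPM at TP3 (log2 fold change 1.46, SE 0.39, adjusted p = 0.0127 from edgeR), and was not called without TP1 treated replicate 3 (0.0713). None of the fibroblast genes was called without that tumor, 1 without TP1 treated replicate 1 or TP3 treated replicate 1, 2 or 4, and 5 without TP1 treated replicate 2. Of 18 basement membrane genes 3 rose and 2 fell (median -0.13), beside 11.0% of all genes called. Lama2, the laminin chain around muscle and fat cells, was at 11.1, 15.0 and 2.54 CPM at TP1 and at 95.3, 69.6, 55.2 and 112 CPM at TP3 (log2 fold change 3.12, SE 0.57, adjusted p = 0.00154). The epithelial laminin chain Lama5 fell by 1.22.

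Of 16 complement genes 2 rose and 3 fell (median 0.07), beside 11.0% of all genes called. C7, a part of the membrane attack complex, was at 0.602, 1.81 and 0.4997 CPM at TP1, at 6.53, 4.24, 2.03 and 2.64 CPM at TP2 and at 38.4, 39.8, 28.9 and 23.8 CPM at TP3, without overlap and with a call in both legs (log2 fold change 5.07, SE 0.62, adjusted p = 0.000125 from edgeR, and 5.87 without TP1 treated replicate 2). The rule for the largest changes required the gap between TP1 and TP3. C4b rose by 1.29. The anaphylatoxin receptors of myeloid cells, C3ar1 and C5ar1, fell by 1.22 and 1.11, and C5ar1 stood at -0.95 without TP1 treated replicate 3. The protease gene Masp1 fell by 1.44. The edgeR test called no gene among 13 endothelial genes (median 0.73), 11 TGF-beta ligands, receptors and feedback genes (median -0.23), 19 respiratory chain genes (of 20, with 0 called) or 22 interferon-stimulated genes (median -0.04), and these stand beside 11.0% of all genes. With 1 tumor left out, 1 endothelial gene was called without TP1 treated replicate 2 or 3 or TP3 treated replicate 2, and the endothelial median was -0.315 with the pancreas genes as a covariate. Other settings with all tumors called up to 3 endothelial genes, 1 interferon-stimulated gene and 1 respiratory chain gene. From TP1 to TP2 all 22 interferon-stimulated genes had a positive log2 fold change (median 0.72) and 0 were called by edgeR, and from TP2 to TP3 4 of the 22 fell (median -0.62), beside 4.4% of all genes.

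RNA of other organs was measured in the same tumors. Of 19 genes of pancreatic acinar cells, which lie next to the omentum, 18 were tested, and 9 rose with a median of 4.10. Their summed level was 34.6, 35.97 and 12.2 CPM at TP1, between 9.51 and 37.7 CPM at TP2 and 231, 102, 648 and 98.9 CPM at TP3, and 2486, 13.1 and 409 CPM in the TP2 controls. All TP3 tumors were above all other treated tumors, but TP2 control replicate 3 lay within their range and replicate 1 above it. Pnlip, the pancreatic lipase, stood at 24.9, 11.0, 60.5 and 9.53 CPM at TP3 and at 1.51, 1.39 and 0.167 CPM at TP1, and its call was lost without TP1 treated replicate 1, 2 or 3 or TP3 treated replicate 3 (adjusted p = 0.0829, 0.0645, 0.116 and 0.073 from edgeR). The 3 genes with the largest rise by the rule, the near-identical amylase copies Amy2a2, Amy2a3 and Amy2a4, hold the same values, 0.100, 0 and 0 CPM at TP1 and 20.7, 7.97, 34.9 and 3.49 CPM at TP3. No fold is given for so few counts at TP1. They were not called without TP1 treated replicate 1 (adjusted p = 0.0506) or 3 (0.0515). The list had 0 genes called without any 1 of the TP1 tumors or TP3 replicate 3, and 2 without TP3 replicate 1. The part of pancreas RNA in the rises described above was not tested beyond the covariate, with which 1185 genes were called in place of 1791 and the share of higher genes was 39.5%.

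Other tissues gave small signals. Of 7 liver genes 3 were tested and 1 rose, Cyp2e1, a cytochrome that fat cells also express, from 0.268, 4.03 and 0.0417 CPM to between 28.1 and 56.7 CPM (log2 fold change 4.78, SE 1.20). Of 5 mast cell genes tested (7 listed) 3 rose (median 1.98), while 0 were called without TP1 treated replicate 1 or 3 and 1 without TP3 treated replicate 4. No gene was called among the 2 skeletal muscle, 5 red blood cell, 1 intestine and 3 nerve genes tested, from lists of 8, 7, 6 and 6. With 1 tumor left out, 1 muscle gene was called without TP1 treated replicate 3 or TP3 treated replicate 2, 3 or 4, and 1 nerve gene and 2 liver genes without TP1 treated replicate 2. Cyp2e1 stood at 7.88 without that tumor.

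Some groups depended on which tumors shared the estimate of the spread. When the HGS2 tumors were fitted together with those of 60577, 2 of the 20 T cell genes, 2 of the 15 B cell genes, 2 of the 14 plasma cell genes, 1 of the 11 cytotoxic genes, 1 dendritic cell gene, 1 epithelial gene, 8 mitosis genes, 5 adipocyte genes and 0 MHC class II genes were called. In the same fit 10 neutrophil, 8 chemokine, 10 fibrillar matrix, 9 hypoxia and 14 lipid genes were called. With the pancreas genes as a covariate 3 T cell, 1 cytotoxic, 1 MHC class II, 4 plasma cell, 5 chemokine, 6 hypoxia and 2 NRF2 genes were called, beside 13 B cell, 9 neutrophil, 11 fibrillar matrix and 17 mitosis genes. The fit with HGS2 tumors also ended the calls of Ccnb1, Ccnb2, Clec9a, Flt4, Loxl2, Mmp2, Pdcd1, Cd3e, Cd4, Cr2, Ms4a1, Cd79a, Pax5, Cxcr5, Mzb1, Irf4, Igkc, Ighm, Jchain, Ighg1, Adipoq, Lep, Adrb3, Lama5, C4b, Masp1, Cyp2e1, Pnlip and the amylase copies (adjusted p between 0.0524 and 0.341). The pancreas covariate also ended those of Cxcl5, Ccl3, Vegfa, Hmox1, Mdm2, Lox, Loxl2, Tcf7, Cd4, Cxcl13, Tnfsf11, Irf4, Igkc, Ighm, Jchain, Ighg1, Adipoq, Lep, Cyp2e1 and Pnlip, where Mdm2 (-0.89) and Tcf7 (0.97) missed only the limit on size.

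The end of the path was set beside the TP2 controls, the nearest in time. At TP3, 3966 genes (24.4%) differed from these controls, 2307 higher (14.2%) and 1659 lower (10.2%), and at TP1 2535 (15.6%) differed from its own controls, 1567 higher (9.65%) and 968 lower (5.96%). All 22 mitosis genes (median -2.90), 22 of 23 DNA replication genes (-2.22) and 10 of 11 epithelial genes (-2.68, with 1 higher) were lower at TP3. All 15 B cell genes (4.52), all 20 T cell genes (3.20), 10 of 11 cytotoxic genes (3.03), all 14 adipocyte genes (7.63) and 17 of 20 lipid genes (2.52) were higher. The acute groups ended at or below the untreated level. Neutrophil genes had 8 of 12 lower and 1 higher (median -2.30), chemokines 7 of 10 lower (-2.13), fibrillar matrix genes 8 of 26 lower and 2 higher (-0.28), and proteases 7 of 21 lower and 2 higher (-0.07). For Col1a1 and Col3a1 the difference from the TP2 controls was -0.59 and 0.47 on the log2 scale, without a call. TP2 control replicate 2 was rich in hypoxia and neutrophil RNA (neutrophil sum 869 CPM, beside 227 and 132 CPM), and the part of this tumor in these differences was not tested gene by gene. Without it, 3610 genes were called in place of 3966.

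The same contrast in the HGS2 model, another HGSOC line in C57BL/6J mice (TP1 n = 3, TP3 n = 3), differed in 158 genes (0.973%), 77 with a more positive (0.474%) and 81 with a more negative change in 60577 (0.499%), in a joint edgeR fit. The models differ in strain and in the days of treatment, which cannot be told apart from the cell line. Of 20 lipid genes 8 differed, all more positive in 60577 (median difference 1.98). For Fasn the difference was 3.20 (SE 0.40, adjusted p = 0.000165), since HGS2 tumors held 273 ± 20.3 CPM (SD, n = 3) at TP1 and 236 ± 8.79 CPM (SD, n = 3) at TP3. Acaca differed by 2.77 (adjusted p = 1.17e-05), Slc16a3 by -2.63 and Agpat2 by 2.00 (adjusted p = 0.0082 for both), and these 4 were called on leaving out any 1 of the 13 tumors of the contrast. With HGS2 TP3 treated replicate 1 included, which was left out of the joint fit because the study's sample-level results do not show it, the difference was called in 12 genes and of those named here only in Spp1 (-7.18, adjusted p = 0.0447).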

How the data were processed

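Bulk RNA of 38 libraries was sequenced, and the report rests on the 17 60577 tumors, with HGS2 tumors used for the filter on low counts, the joint fits and the difference between models. Per the labels and the paper's methods, the authors depleted ribosomal RNA, trimmed reads with Trim Galore 0.6.5, mapped strand-specific paired-end reads to GRCm38 with STAR 2.7.0f and estimated counts with RSEM. The values that the authors deposited are RSEM expected counts for 55487 genes, neither filtered nor normalized. The reference is C57BL/6J, whereas 60577 tumors grew in FVB mice. The authors' later length and GC normalization is not in these values.

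Here the expected counts were rounded (3.57% were not whole). A gene was kept where 25% of 33 tumors or more reached 1 CPM (16241, of which 13926 protein coding), and 55227 genes had a GENCODE M21 entry. Library sizes were scaled by TMM, and 1 fit of the 5 groups with edgeR 4.0.16 (R 4.3.3) gave two-sided quasi-likelihood tests, adjusted by Benjamini-Hochberg over all genes tested. The SE is the absolute log2 fold change divided by the square root of F. Log2 CPM used a prior count of 2. Tables and figures used Python 3.11.15, pandas 2.3.3, numpy 2.4.6 and matplotlib 3.10.9. In counts simulated for the TP3 against TP1 comparison over 16241 genes, the test called 91% of 200 genes whose log2 fold change was set to 2. It also called 6 genes that were left unchanged. The simulation held no tumor that stood apart from its group and no shift shared between genes, so these shares need not hold in the tumors. No pair of replicates was a copy.

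Named genes were members of the 39 lists and the 12 largest rises and falls among genes called, without overlap of the groups and with a mean of at least 10 CPM in the higher group, leaving out variable segments. Some listed genes are not reported here by name. The members and lists were chosen with earlier results of these data known. Alternatives were DESeq2 1.42.0 size factors and its Wald test, limma-voom (limma 3.58.1), 3 other filters, the replicate number as a block, a length and GC offset from splines (5 degrees of freedom), alone or beside the block, fits of the compared groups only and of both models together, the pancreas genes or the 7SL share as a covariate, and each tumor left out in turn. The replicate numbers do not come from a shared animal or batch in the labels.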

Additional observations from a re-analysis of the deposited data

Results flagged for a closer look

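In groups of 4 tumors, 13 of 280 sets of values (140 genes at TP2 and TP3) had a highest or lowest tumor that stood off from the rest past Dixon's 95% critical value for 4 samples, near the 1 in 20 that chance gives. Of these, 9 were at TP2. Fat genes stood out high in TP2 treated replicate 1, with 102.5 CPM of Dgat2, 26.7 CPM of Lep and 210 CPM of Plin1. Replicate 2 at TP2 was high for Slc16a3 (78.9 CPM), Kif20a (14.8 CPM) and the amylase copies Amy2a2, Amy2a3 and Amy2a4 (0.193 CPM each), and replicate 3 was low for Cdkn1a (48.8 CPM). At TP3, replicate 3 was low for Scd1 (4084 CPM) and Agpat2 (43.9 CPM), and replicate 4 was low for Spp1 (6.88 CPM) and Trem1 (0.0969 CPM).

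The change from TP1 to TP3 differed between the models in 20 of the named genes in the joint edgeR fit, given as the log2 change in 60577 minus that in HGS2. It was more negative in 60577 for Spp1 (-6.93), Fcrlb (-4.75), S100a9 (-4.51), Col1a1 (-2.93), Slc16a3 (-2.63), Adamts4 (-2.20) and Sdc1 (-1.97). It was more positive for Tmem45b (9.14), C7 (4.91), Ly6c2 (4.67) and, among fat genes, for Dgat2 (5.24), Scd1 (4.62), Fasn (3.20), Lipe (2.97), Pparg (2.91), Acaca (2.77), Pnpla2 (2.53), Agpat2 (2.00), Lpin1 (1.95) and Cebpa (1.91). Of these, Fasn, Acaca, Slc16a3 and Agpat2 were called on leaving out any of the 13 tumors of the contrast. Spp1 had 9 of 13 such calls and was called with HGS2 TP3 treated replicate 1 included (adjusted p = 0.0447 from edgeR). In HGS2 Tmem45b rested on few counts, with a mean of 2.295 CPM at TP1 and 0.203 CPM at TP3. Its difference was 3.72 with that replicate included (adjusted p = 0.445 from edgeR).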

How the results depend on the processing

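Of 129 named genes called between TP1 and TP3, 79 were called under all of the 20 alternatives that gave them an adjusted p, and none reversed (DESeq2 gave none for 2 genes). Most calls were lost in the fit of both models (38), with the pancreas covariate (25) and without TP1 treated replicate 1 (22) or 3 (20). Counts between TP1 and TP3 (1791) were 901 with both models and 1185 with the pancreas covariate, and 1111 to 2063 with 1 tumor left out; the share of higher genes was 40.1% and 39.5% in the first 2 of these and 47.3% to 57.3% under the other settings with all tumors. From TP1 to TP2 (977) they were 570 with the replicate block, 618 with the length and GC offset and block, 247 with only the compared groups, 271 with both models, 398 with the 7SL share, and 254 to 1369 with 1 tumor left out (lowest without TP1 treated replicate 1, highest without TP2 treated replicate 1), and the share of higher genes went from 59.5% to 27.3% with both models. From TP2 to TP3 (1278) they were 803 with both models, 7 with the 7SL share and 732 to 2127 with 1 tumor left out (without TP2 treated replicate 3 and 1), and the share of higher genes went from 44.1% to 28.0% with the pancreas covariate. TP1 treated against control tumors (2535) gave 1605 with both models. TP2 against TP1 controls (0) gave 70 with DESeq2's Wald test, 53 with the pancreas covariate and 0 to 36 with 1 tumor left out (36 without TP2 control replicate 2). The difference between models (158) was 81 with the replicate block, 12 with HGS2 TP3 treated replicate 1 and 14 to 717 with 1 tumor left out (lowest without 60577 TP1 treated replicate 1, highest without HGS2 TP3 treated replicate 2). The cause of these moves was not tested.

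Small list medians changed sign, to -0.015 for monocytes, -0.074 for macrophages -0.114 for regulatory T cells and checkpoints, -0.315 for endothelium and -0.039 for mesothelium with the pancreas covariate, to 0.039 for basement membrane with the length and GC offset and block, and to -0.242 for complement with the 7SL share and -0.012 without TP3 treated replicate 4 (-0.012 to 0.135 with 1 tumor left out). Medians near 0 crossed it for interferon-stimulated genes (0.171 with the replicate block), mesothelium (-0.121 with the length and GC offset and block), the respiratory chain (-0.153 with the 7SL share) and intestine (-0.031 without TP3 treated replicate 3). Same-numbered tumors of TP1 and TP3 had deviations correlated between -0.114 and 0.007 over 3 pairs (other pairs -0.163 to 0.16), so the numbers were not taken as pairs; the replicate block left 1611 genes called between TP1 and TP3. Genes near 1 CPM rest on few counts, and changes there may not have been detectable at this depth.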
